A study of Mus musculus with 9 samples.

Results

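The proteasome genes examined here were the protein-coding genes whose symbol began with Psma, Psmb, Psmc, Psmd, Psme, Psmf or Psmg followed by a number. Psmb8, Psmb9 and Psmb10, the interferon-inducible catalytic subunits, were set aside, and every gene had to reach 10 raw counts in each of the 9 libraries. The symbols matched 50 genes, of which 47 were left without those 3, and 46 of these reached the minimum, out of 12538 protein-coding genes tested and 21890 in the table. The members were thus selected on their raw counts in the same libraries, and their presence in every library is not a result. Just inside the minimum were Psma8, with 22 to 53 counts in the 9 libraries, Psmc3ip, with 24 to 55, and Psmg3, with 41 to 82. The only match outside it was Psmb11, the catalytic subunit of the thymus proteasome, which had 0 counts in every library.

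The RNA came from CD11b+ cells that were sorted out of the brain hemisphere carrying a GL261 glioma, a mouse tumor line grown here with luciferase and the red protein tdTomato. All groups were male C57BL/6J mice, aged 10 to 12 weeks when the study began, each given 80000 GL261 luc+ tdT+ cells in the right striatum. There were 2 libraries from CTR mice, given saline, 2 from OAT-1746 mice, 2 from anti-PD-1 mice and 3 from COMB mice, given both agents, described in the methods as biological replicates. Libraries were stranded and made from poly-A RNA, and their totals ran from 13048075 to 18796479 counts. OAT-1746, an oral inhibitor of arginases 1 and 2, was given by gavage from day 1 at 50 mg/kg 2 times a day. The antibody against PD-1 was injected into the peritoneum, 2.5 mg/kg each time, on day 8, day 10, day 12 and day 14. The sources used here give the day of collection as 28 in the methods and 21 in a legend. CD11b was the only sorting marker, so microglia, monocytes, macrophages and other CD11b+ cells entered each library together, from brain dissociated with papain and cleared on 22% Percoll. For replicate 2 of anti-PD-1 the label of the treatment and the title disagree on the antibody's target, and the title was followed.

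The proteasome is the barrel-shaped protease that degrades ubiquitin-tagged proteins in the cytosol and nucleus. Its 20S core stacks outer rings of alpha subunits, which gate entry, on inner rings of beta subunits, of which Psmb5, Psmb6 and Psmb7 carry the active sites, and its 19S regulatory particle has a base of ATPases that unfold substrates and a lid that removes ubiquitin. In myeloid cells interferon-gamma induces other catalytic subunits and the PA28 activator (Psme1 and Psme2), which favour peptides for MHC class I.

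By role, 15 of the 46 members were 20S subunits (8 of the alpha ring and 7 of the beta ring) and 17 were 19S subunits (9 of the base and 8 of the lid). A further 5 were activators or inhibitors (Psme1, Psme2, Psme3, Psme4 and Psmf1) and 7 were assembly chaperones (Psmd5, Psmd9, Psmd10, Psmg1, Psmg2, Psmg3 and Psmg4). The other 2 matched by symbol alone: Psmc3ip encodes a partner of meiotic recombinases, and Psme2b is a copy of Psme2 without introns, so its reads may be split with Psme2 and its values are uncertain. Psma8 is the testis form of an alpha subunit. The genes lay on 16 chromosomes, with at most 10 on any of them. Exons of 4 members overlapped another gene on the same strand, and over 10% of exon bases were shared only for Psmb5, at 12.1%, with the microRNA gene Mir686.

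In correlations between libraries, 1 library stood apart. OAT-1746 replicate 2 had correlations of log2 CPM with the other 8 libraries of 0.911 to 0.956 across genes, against 0.960 to 0.989 among those 8. CPM denotes the count of a gene scaled to the library's total with edgeR's TMM factor. The 2 OAT-1746 libraries were therefore also followed one at a time, and each median over a role or list in OAT-1746 is given with and without replicate 2. All comparisons with CTR used the same 2 CTR libraries, so their values are not independent of each other.

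Levels between proteasome genes were compared only as CPM per kb of exon. For the marker lists, the gene named as leading is the one with the highest mean CPM, not scaled to exon length. In CTR the highest levels per kb belonged to Psme1 at 153 and Psme2 at 150.4 CPM per kb, followed by the alpha subunit Psma6 at 102 and the beta subunits Psmb2, Psmb4 and Psmb6 at 94.4, 84.3 and 74.4 CPM per kb. The lowest were Psma8 at 0.703, Psmg3 at 1.03 and Psmc3ip at 1.69 CPM per kb. As medians over a role in CTR, the levels were 44.7 CPM per kb for the alpha ring, 42.8 for the beta ring, 45.7 for the base, 27.6 for the lid and 46.2 for the activators and inhibitor, with 6.21 for the assembly chaperones. The roles overlapped gene by gene, since the chaperones Psmg4 and Psmd10 had 29.2 and 22.2 CPM per kb, and the subunits Psmd11 and Psmd1 had 10.4 and 14.8. Exon lengths included rarely used exons, which lowers the level per kb of some genes.

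Most members shared their lowest library and most shared their highest library. The summed level of the 46 members was 4512 and 4573 CPM in CTR, 3492 and 2168 in OAT-1746, 4468 and 4620.1 in anti-PD-1, and 3929.8, 5913 and 5532 in COMB. Both OAT-1746 libraries lay below all others, COMB replicates 2 and 3 lay above all others, and COMB replicate 1 lay between CTR and OAT-1746. Relative to the CTR mean, the median member differed on the log2 scale by −0.36 and −1.0 in OAT-1746, by 0.00 and 0.05 in anti-PD-1, and by −0.18, 0.33 and 0.25 in COMB. OAT-1746 replicate 2 was the lowest of the 9 libraries for 40 members, and both OAT-1746 libraries were the lowest pair for 34. COMB replicate 2 was the highest library for 36 members. The COMB libraries themselves did not move alike, since 38 members were below the CTR mean in replicate 1 while 43 and 42 were above it in replicates 2 and 3. In bulk libraries such as these, fewer cells of a type and less RNA per cell cannot be told apart.

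**Figure D1:**
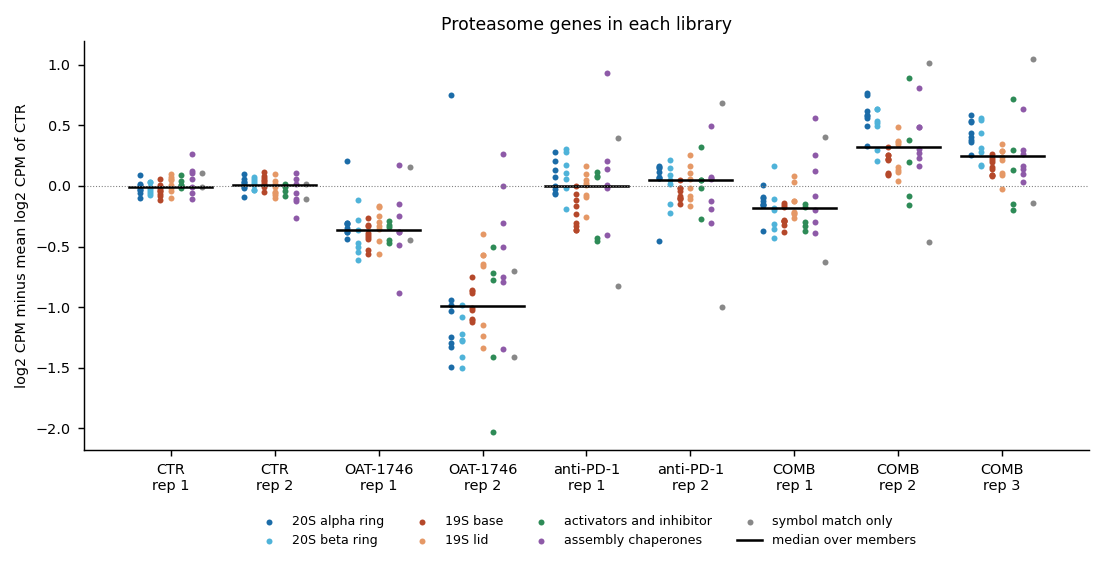
Each point is 1 of the 46 members in 1 library, plotted as log2 CPM minus the mean log2 CPM of CTR, coloured by role, with the median over members as a bar. The bars of OAT-1746 lie at −0.36 and −1.0, and those of COMB at −0.18, 0.33 and 0.25.

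The comparison of OAT-1746 with CTR asks what the arginase inhibitor alone does to these cells. Of the 46 members, 43 had lower levels in OAT-1746, and the median log2 fold change was −0.63, against 0.01 over all tested genes. In 42 members both OAT-1746 libraries were below both CTR libraries, which held for 32.1% of all tested genes, and in 1 member, Psma8, both were above, which held for 30.8%. At an unadjusted p under 0.05, 32 members were lower and none higher, against 16.2% of all tested genes lower and 16.1% higher. No member passed edgeR's adjusted p under 0.05, where the count over all tested genes was also 0 (0%). The smallest edgeR adjusted p was 0.0698, for Psmg1. DESeq2 placed 11 members below CTR at an adjusted p under 0.05, a call made in that direction for 7.37% of all tested genes. Without OAT-1746 replicate 2 the median was −0.35, and the 3 members lower at an unadjusted p under 0.05 were a share close to that of all tested genes (6.72%). Without replicate 1 the median was −1.0 with 39 members lower at an unadjusted p under 0.05 (23.9% of all tested genes), of which 35 passed edgeR's adjusted p (17.5%). Leaving out CTR replicate 1 or CTR replicate 2 gave 13 lower members each, against 7.59% and 11.2% of all tested genes.

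Within the 20S core, 14 of 15 members were lower in OAT-1746, 11 at an unadjusted p under 0.05, with a median of −0.75. In the alpha ring 7 of 8 members were lower (median −0.67), and in the beta ring 7 of 7 (median −0.82). Without OAT-1746 replicate 2 the medians were −0.35 for the core, −0.32 for the alpha ring and −0.45 for the beta ring, and 0 core members had an unadjusted p under 0.05. The summed level of the 15 core genes was 1632 and 1666 CPM in CTR, 1274 and 718 in OAT-1746, 1758 and 1725 in anti-PD-1, and 1460.2, 2376 and 2169 in COMB. OAT-1746 replicate 2 held less than any other library and COMB replicate 2 the most. The exception was Psma8, with 1.62 and 1.88 CPM in CTR, 2.04 and 3.03 in OAT-1746, 1.67 and 1.24 in anti-PD-1, and 1.63, 2.64 and 2.41 in COMB, where OAT-1746 replicate 2 was the highest library although the counts were low.

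Of the active-site subunits, Psmb5 (ENSMUSG00000022193, chr14:54614119-54618022 on the minus strand) in GRCm38 encodes the chymotrypsin-like site. Its level was 36.8 and 39.8 CPM in CTR, 25 and 13.4 in OAT-1746, 41.3 and 39.6 in anti-PD-1, and 30.8, 54.9 and 46.4 in COMB. Both OAT-1746 libraries were below the other 7, replicate 2 far below replicate 1, and COMB replicate 2 was highest. The groups did not overlap (log2 fold change −0.99, SE 0.32, edgeR adjusted p = 0.0850, DESeq2 adjusted p = 0.0332). A correction for length and GC content gave a log2 fold change of −0.60. Psmb6 (ENSMUSG00000018286, chr11:70525367-70527858 on the plus strand), the caspase-like site, had 142 and 136 CPM in CTR, 98.2 and 52.1 in OAT-1746, 138 and 126 in anti-PD-1, and 109, 171 and 156 in COMB. Here too OAT-1746 lay below every other library without overlap (log2 fold change −0.89, SE 0.30, edgeR adjusted p = 0.0914, DESeq2 adjusted p = 0.0412). Psmb7 (ENSMUSG00000026750, chr2:38588036-38644087 on the minus strand), the trypsin-like site, had 102 and 98.1 CPM in CTR, 92.4 and 50.6 in OAT-1746, 122 and 116 in anti-PD-1, and 112, 156 and 147 in COMB. Replicate 1 of OAT-1746 was close to CTR for Psmb7, and the difference was smaller (log2 fold change −0.49, SE 0.27, edgeR adjusted p = 0.229, DESeq2 adjusted p = 0.237). Psmb4, a beta subunit without an active site, had 163 and 165 CPM in CTR, 113 and 70.2 in OAT-1746, 203 and 182 in anti-PD-1, and 153, 256 and 240.3 in COMB, with OAT-1746 again below all other libraries (log2 fold change −0.85, SE 0.28, edgeR adjusted p = 0.0902, DESeq2 adjusted p = 0.0392). Without OAT-1746 replicate 2, the log2 fold changes of Psmb5, Psmb6, Psmb7 and Psmb4 were −0.60, −0.49, −0.10 and −0.53 (edgeR adjusted p = 0.355, 0.369, 0.823 and 0.377). Without OAT-1746 replicate 1, those of Psmb5, Psmb6 and Psmb4 were −1.51, −1.42 and −1.23 (edgeR adjusted p = 0.0102, 0.00731 and 0.0161).

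The promoters of Psmb5 and Psmb6 are shown because these genes encode active sites and both hold TGACNNNGC, the core of the antioxidant response element to which NRF1 and NRF2 bind. Sequences are from RefSeq (GRCm38.p6), 250 bases before to 50 after the gene's start, read along the gene's strand, with the motif in capitals. Psmb5 is chr14:54617946-54618245 on the minus strand, with the match 47 bases before the start, and Psmb6 is chr11:70525107-70525406 on the plus strand, with the match 9 bases before it. Searched on both strands, the motif was in promoters of 6 of 38 members (15.8%) and of 14% of all 27025 genes with a promoter. Here and below, shares of promoters count genes, some of which have more than 1 promoter. The genes with a promoter were not limited to those tested here, while the members had to reach the count minimum. The shares of members and of all promoters thus come from unlike sets. Every match also fits the shorter TGANNNNGC.
Psmb5: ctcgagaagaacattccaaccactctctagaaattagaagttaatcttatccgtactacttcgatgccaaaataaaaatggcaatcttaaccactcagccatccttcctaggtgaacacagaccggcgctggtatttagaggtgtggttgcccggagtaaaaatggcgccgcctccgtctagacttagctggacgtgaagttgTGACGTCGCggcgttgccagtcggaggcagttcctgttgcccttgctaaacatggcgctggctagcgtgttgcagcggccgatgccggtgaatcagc
Psmb6: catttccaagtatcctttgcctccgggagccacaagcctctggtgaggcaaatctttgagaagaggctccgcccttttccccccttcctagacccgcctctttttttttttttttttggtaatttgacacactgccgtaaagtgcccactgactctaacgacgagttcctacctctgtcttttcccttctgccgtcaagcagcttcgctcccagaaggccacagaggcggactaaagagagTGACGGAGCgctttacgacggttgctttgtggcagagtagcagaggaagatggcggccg

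In the 19S regulatory particle all 17 members were lower in OAT-1746, 15 of them at an unadjusted p under 0.05, with a median of −0.62. The summed level of these genes was 1854 and 1899 CPM in CTR, 1433 and 988 in OAT-1746, 1707 and 1825 in anti-PD-1, and 1607, 2163 and 2095 in COMB, with the same order of libraries at the bottom and top as for the core. All 9 genes of the base, which holds the ATPases Psmc1 to Psmc6 and the scaffold Psmd2, had an unadjusted p under 0.05. Their log2 fold changes were −0.82 to −0.54, with a median of −0.64. The ATPase Psmc3 had 170.1 and 181 CPM in CTR, 119 and 80.7 in OAT-1746, 139 and 159 in anti-PD-1, and 141, 204 and 187 in COMB. Anti-PD-1 was below CTR as well, and OAT-1746 was lowest, without overlap with any other group (log2 fold change −0.82, SE 0.23, edgeR adjusted p = 0.0726, DESeq2 adjusted p = 0.0183). With replicate 2 of OAT-1746 left out, Psmc3 was at −0.55 (edgeR adjusted p = 0.311). The lid had a median of −0.46 and 6 of 8 members at an unadjusted p under 0.05. Without that library the medians were −0.34 for the particle, −0.39 for the base and −0.30 for the lid, with all 17 members still below CTR and 2 at an unadjusted p under 0.05, both of the base.

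One lid member was Psmd14, the deubiquitinase that cuts ubiquitin chains from substrates, with 95.3 and 88 CPM in CTR, 62 and 36.2 in OAT-1746, 76.7 and 95.4 in anti-PD-1, and 78.8, 118 and 116 in COMB. COMB replicates 2 and 3 were highest, and both OAT-1746 libraries were below the other 7 (log2 fold change −0.90, SE 0.28, edgeR adjusted p = 0.0811, DESeq2 adjusted p = 0.0305). With replicate 1 as the only OAT-1746 library, Psmd14 was at −0.55 (edgeR adjusted p = 0.340). Closer to 0 in the lid were the scaffold subunit Psmd11 at a log2 fold change of −0.28 and Psmd3 at −0.39. The promoter of Psmd14, chr2:61711444-61711743 on the plus strand, holds GCGCA and GCGC separated by any 1 base, the palindrome of nuclear respiratory factor 1, a factor other than the NRF1 named above, 80 bases before the start on the opposite strand. That motif was in 7 of 38 member promoters (18.4%) and 5.19% of all promoters, and its matches overlapped no other motif searched in the members.
Psmd14: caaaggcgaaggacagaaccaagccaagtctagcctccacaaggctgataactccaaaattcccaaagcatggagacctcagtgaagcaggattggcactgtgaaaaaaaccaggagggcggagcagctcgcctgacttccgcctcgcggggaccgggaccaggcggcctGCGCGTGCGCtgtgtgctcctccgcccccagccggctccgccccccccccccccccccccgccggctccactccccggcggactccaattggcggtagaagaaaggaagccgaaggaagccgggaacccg

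Among the activators, Psme1 and Psme2 encode the PA28 alpha and beta chains that cap the core. Psme1 had 334 and 341 CPM in CTR, 267 and 126 in OAT-1746, 357 and 349.7 in anti-PD-1, and 268, 439 and 414 in COMB, and Psme2 had 266 and 264 CPM in CTR, 192 and 64.9 in OAT-1746, 287 and 331 in anti-PD-1, and 239, 491 and 435 in COMB. For both genes OAT-1746 replicate 2 was far below every other library, replicate 1 lay between it and CTR, and COMB replicates 2 and 3 were highest. The differences between OAT-1746 and CTR were −0.78 for Psme1 (SE 0.34, edgeR adjusted p = 0.149) and −1.05 for Psme2 (SE 0.46, edgeR adjusted p = 0.155) on the log2 scale. The nuclear activators Psme3 and Psme4 had log2 fold changes of −0.54 and −0.58, and Psmf1, an inhibitor of the core, −0.39, all at an unadjusted p under 0.05. With replicate 2 of OAT-1746 left out, no member of this role had an unadjusted p under 0.05, the median of the 5 went from −0.58 to −0.32, and Psme1 and Psme2 were at −0.32 and −0.45. Psme1 is shown because its promoter holds GAAA repeated after any 2 bases, the repeat to which interferon regulatory factors bind, which was in 5 of 38 member promoters (13.2%) and 3.99% of all promoters. The window is chr14:55578244-55578543 on the plus strand, the match starts 9 bases after the start on the opposite strand, and in another member, Psmg4, the motif overlapped TGANNNNGC.
Psme1: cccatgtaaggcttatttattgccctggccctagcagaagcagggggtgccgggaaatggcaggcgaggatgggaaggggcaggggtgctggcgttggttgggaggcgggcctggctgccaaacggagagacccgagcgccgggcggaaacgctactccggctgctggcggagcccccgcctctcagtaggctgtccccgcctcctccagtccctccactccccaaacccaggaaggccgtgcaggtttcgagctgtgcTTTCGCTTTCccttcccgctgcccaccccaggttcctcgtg

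Assembly chaperones differed among themselves. In OAT-1746, 5 of 7 were lower and 2 had an unadjusted p under 0.05, Psmg1 and Psmd10 (−0.62 on the log2 scale). Psmg1, which pairs with Psmg2 to build the alpha ring, had 14.2 and 12.2 CPM in CTR, 7.10 and 7.55 in OAT-1746, 13 and 13.8 in anti-PD-1, and 12.5, 18.5 and 13.5 in COMB. The 2 OAT-1746 libraries were close to each other and below all other libraries (log2 fold change −0.85, SE 0.22, edgeR adjusted p = 0.0698, DESeq2 adjusted p = 0.0188). With replicate 1 alone, Psmg1 was at −0.88 (edgeR adjusted p = 0.285) and Psmd10 at −0.48, and the median of the 7 was −0.37, against −0.45 with both. Psmd5 had 34.7 and 32 CPM in CTR, 28.1 and 40.1 in OAT-1746, 36.7 and 30.5 in anti-PD-1, and 36.2, 37.3 and 36.7 in COMB. Its lowest and highest libraries were thus both from OAT-1746, and the log2 fold change was 0.03, or −0.23 without replicate 2. That of Psmg3 was 0.07. The promoter of Psmg1, chr16:95990911-95991210 on the minus strand, holds CCGGAAG, the core bound by ETS factors, 69 bases before the start. That motif was in 15 of 38 member promoters (39.5%) against 9.93% of all promoters, and in 1 member, Psme4, it overlapped GGGCGG.
Psmg1: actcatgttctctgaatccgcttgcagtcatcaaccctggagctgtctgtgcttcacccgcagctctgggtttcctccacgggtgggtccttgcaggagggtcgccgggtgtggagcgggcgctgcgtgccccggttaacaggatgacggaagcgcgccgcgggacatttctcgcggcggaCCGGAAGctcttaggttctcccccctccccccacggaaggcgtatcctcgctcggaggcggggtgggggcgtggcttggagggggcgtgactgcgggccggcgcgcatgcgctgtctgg

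**Figure D2:**
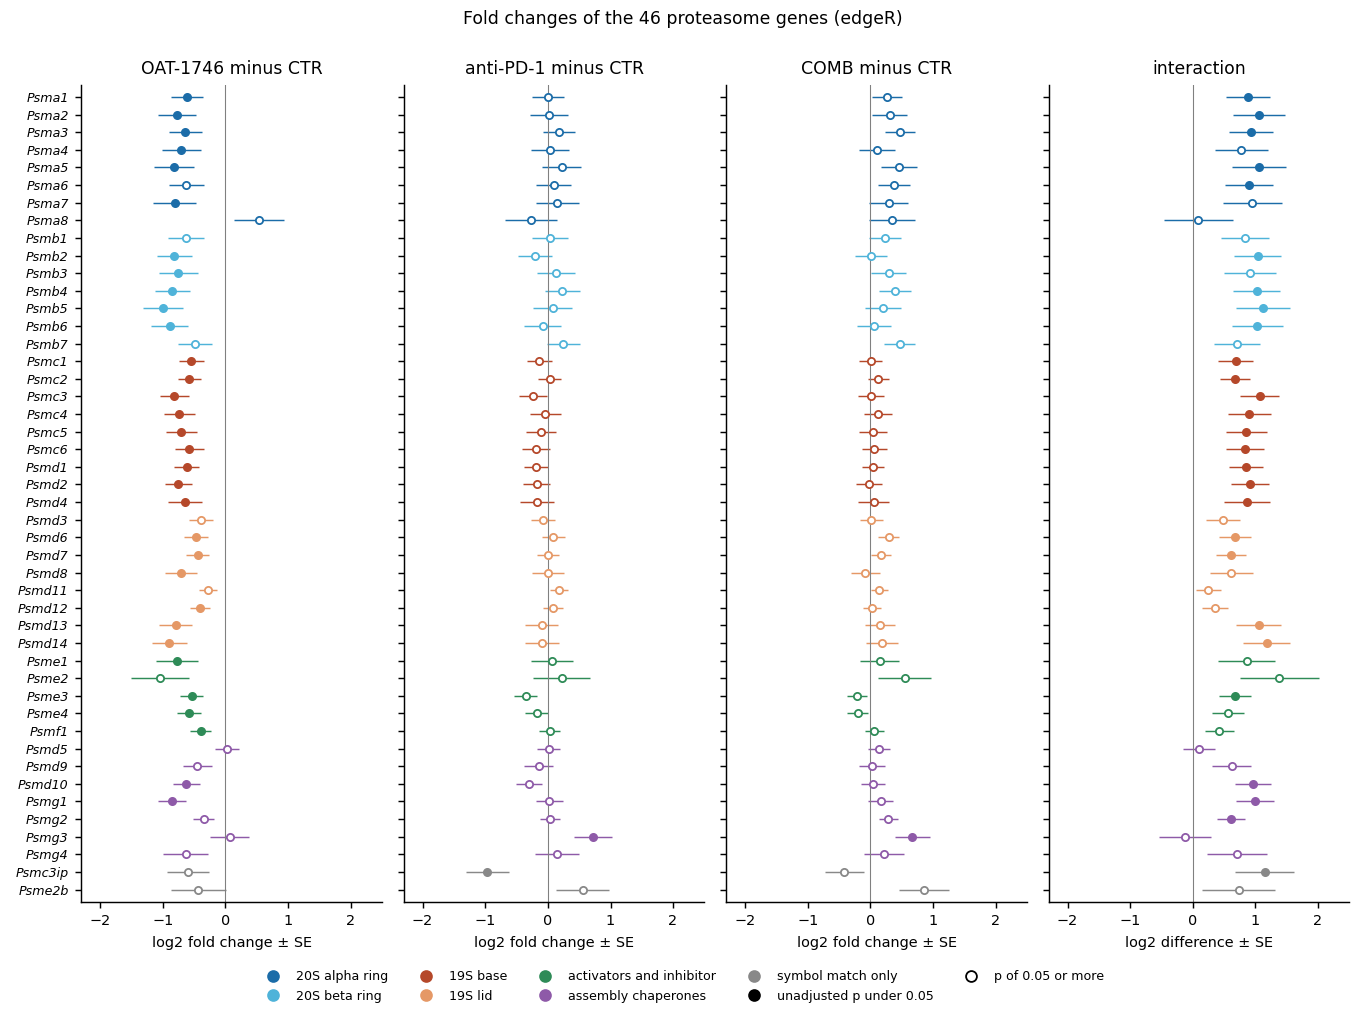
Each row is a member and each panel a contrast, with points at the edgeR log2 fold change (log2 difference for the interaction), bars of 1 SE, colours for roles and filled points for an unadjusted p under 0.05. In OAT-1746, 32 points are filled, all left of 0, and in the interaction 27, all right of 0.

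The comparison of anti-PD-1 with CTR asks what the antibody alone does. The members were divided, 27 higher and 19 lower, with a median log2 fold change of 0.02, against 0.02 over all tested genes. Both anti-PD-1 libraries were above both CTR libraries for 14 members (20.6% of all tested genes) and below for 11 (16.9%). At an unadjusted p under 0.05, 1 member was higher (3.18% of all tested genes) and 1 lower (1.94%). None passed edgeR's adjusted p under 0.05 (0% of all tested genes), and DESeq2 called 0 members. The median was −0.03 with a correction for length and GC content, and −0.01 without anti-PD-1 replicate 2, so it had no fixed side of 0. The share of members called was close to the background.

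The member higher at an unadjusted p under 0.05 was Psmg3, a chaperone of alpha ring assembly, with 3.54 and 2.41 CPM in CTR, 3.32 and 2.92 in OAT-1746, 5.71 and 4.17 in anti-PD-1, and 4.38, 5.21 and 4.61 in COMB. Both anti-PD-1 libraries were above both CTR libraries, on low counts (log2 fold change 0.73, SE 0.30, edgeR adjusted p = 0.951, DESeq2 adjusted p = 0.995). The member lower was Psmc3ip, with 3.30 and 2.82 CPM in CTR, 2.21 and 1.83 in OAT-1746, 1.67 and 1.47 in anti-PD-1, and 1.93, 2.18 and 2.76 in COMB, CTR being above anti-PD-1 without overlap (log2 fold change −0.96, SE 0.35, edgeR adjusted p = 0.951, DESeq2 adjusted p = 0.878). By role, the 19S base had a median of −0.17 with 8 of 9 members lower, 5 of them without overlap, while the alpha ring had 0.06 with 7 of 8 higher and the beta ring 0.08. No other member had an unadjusted p under 0.05. The catalytic subunits were at 0.08 for Psmb5, −0.08 for Psmb6 and 0.25 for Psmb7, and PA28 at 0.07 for Psme1 and 0.22 for Psme2. The count at that threshold was 1 without CTR replicate 1, CTR replicate 2 or anti-PD-1 replicate 1, against 4.46%, 3.83% and 2.64% of all tested genes in either direction. It was also 1 without COMB replicate 1, 2 or 3 (5.16%, 4.16% and 3.45%). Without OAT-1746 replicate 1 or 2 it was 4, 2 lower and 2 higher, again a share close to that of all tested genes (7.43% and 7.62%).

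The comparison of COMB with CTR asks what both agents do together. Levels were higher in COMB for 41 of 46 members, with a median log2 fold change of 0.15, against −0.005 over all tested genes. That median was 0.27 without COMB replicate 1, 0.03 without COMB replicate 2 and 0.09 without COMB replicate 3. COMB replicates 2 and 3 were above CTR for most members and replicate 1 below, so all 3 libraries were above both CTR libraries for only 5 members, Psmb7, Psmd5, Psme2b, Psmg2 and Psmg3 (12.1% of all tested genes). All 3 were below for Psmc3ip, Psme3 and Psme4, 3 members (15.8%). At an unadjusted p under 0.05, 1 member was higher (3.21%) and 0 were lower (3.37%), and edgeR's adjusted p and DESeq2 called 0 (0% by edgeR). The higher member was again Psmg3 (log2 fold change 0.67, SE 0.28, edgeR adjusted p = 0.752, DESeq2 adjusted p = 0.755). Role medians were 0.33 for the alpha ring, 0.23 for the beta ring, 0.04 for the base, 0.15 for the lid and 0.17 for the chaperones. Psme2 was at 0.55, Psme1 at 0.15, Psmb5 at 0.20, Psmb6 at 0.06 and Psmb7 at 0.47. The count at an unadjusted p under 0.05 was 5 without COMB replicate 1, all higher (3.41% of all tested genes), 4 without either OAT-1746 replicate 1 or 2, also higher (3.96% and 4.21%), and 0 without COMB replicate 2, COMB replicate 3 or CTR replicate 2.

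The interaction asks whether OAT-1746 acted differently in mice given the antibody, as COMB minus anti-PD-1, less OAT-1746 minus CTR. The log2 difference was positive for 45 of 46 members, with a median of 0.85 against −0.02 over all tested genes. Psmg3, at −0.12, was the exception. At an unadjusted p under 0.05, 27 members were positive and 0 negative, against 11.8% of all tested genes positive and 14.4% negative. None passed edgeR's adjusted p under 0.05, where 0.359% of all tested genes did, and the smallest was 0.11. DESeq2 called 6 members, all positive (3.61% of all tested genes in that direction). All 9 genes of the 19S base had an unadjusted p under 0.05 (median 0.85), as did 5 of the alpha ring (0.92), 4 of the beta ring (1.02), 4 of the lid (0.61), 3 chaperones (0.62) and 1 activator (0.67). With replicate 2 of OAT-1746 left out, these medians were 0.59 for the base, 0.59 for the alpha ring, 0.65 for the beta ring, 0.39 for the lid, 0.56 for the chaperones and 0.44 for the activators.

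The highest log2 difference was that of Psme2, at an unadjusted p above 0.05 (log2 difference 1.38, SE 0.63, edgeR adjusted p = 0.20, DESeq2 adjusted p = 0.114), or 0.80 without OAT-1746 replicate 2. Below that p, the 5 highest were Psmd14 (log2 difference 1.18, SE 0.38, edgeR adjusted p = 0.119, DESeq2 adjusted p = 0.0449), Psmc3ip (log2 difference 1.14, SE 0.47, edgeR adjusted p = 0.172, DESeq2 adjusted p = 0.159), Psmb5 (log2 difference 1.12, SE 0.43, edgeR adjusted p = 0.151, DESeq2 adjusted p = 0.0906), Psmc3 (log2 difference 1.07, SE 0.31, edgeR adjusted p = 0.11, DESeq2 adjusted p = 0.0296) and Psma5 (log2 difference 1.06, SE 0.43, edgeR adjusted p = 0.167, DESeq2 adjusted p = 0.107). Psma5, an alpha ring subunit, had 83.6 and 81.5 CPM in CTR, 60.8 and 32.8 in OAT-1746, 100.1 and 91.9 in anti-PD-1, and 77.1, 139 and 124 in COMB. Its lowest libraries were those of OAT-1746 and its highest COMB replicates 2 and 3, the pattern already given for Psmd14, Psmb5 and Psmc3. Psmc3ip differed, with its highest libraries in CTR. Without OAT-1746 replicate 2 the median interaction was 0.56 with 11 members positive at an unadjusted p under 0.05 (8.46% of all tested genes). Without replicate 1 it was 1.24 with 39 (20.9%), of which 33 passed edgeR's adjusted p (13.1%). The log2 differences of Psmd14, Psmc3ip, Psmb5, Psmc3 and Psma5 without replicate 2 were 0.85, 1.03, 0.75, 0.82 and 0.69, with edgeR adjusted p from 0.218 to 0.352. The count of positive members at an unadjusted p under 0.05 was 12 without CTR replicate 1 or CTR replicate 2 (6.99% and 8.39% of all tested genes) and 15 without anti-PD-1 replicate 1 or 2 (8.33% and 10.6%). It was 8 without COMB replicate 2 (7.1%), 10 without COMB replicate 3 (7.08%) and 35 without COMB replicate 1 (14.5%).

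The constitutive active-site subunits were set beside their interferon-inducible counterparts, which the choice of members left out. Summed over Psmb5, Psmb6 and Psmb7, the level was 147 and 146 CPM per kb in CTR, 107 and 57.6 in OAT-1746, 155 and 145 in anti-PD-1, and 125, 198 and 178 in COMB. Summed over Psmb8, Psmb9 and Psmb10, it was 353 and 347 CPM per kb in CTR, 272 and 125 in OAT-1746, 397 and 393 in anti-PD-1, and 292, 571 and 518 in COMB. Both sums were lowest in OAT-1746 replicate 2 and highest in COMB replicate 2. As a share of the 2 sums together, the inducible subunits made up 70.6 and 70.5 percent in CTR, 71.7 and 68.4 in OAT-1746, 71.9 and 73 in anti-PD-1, and 70.0, 74.3 and 74.4 in COMB. The share thus stayed within a few percentage points while the sums differed several fold. The level of the share depends on the exon lengths used, from 899 bases for Psmb5 to 3660 for Psmb9, which include rarely used exons. Psmb8, Psmb9 and Psmb10 had log2 fold changes in OAT-1746 of −0.89, −0.69 and −0.80, 1 of them at an unadjusted p under 0.05 (16.2% of all tested genes lower). Without replicate 2 the values were −0.43, −0.26 and −0.30, and none had an unadjusted p under 0.05.

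**Figure D3:**
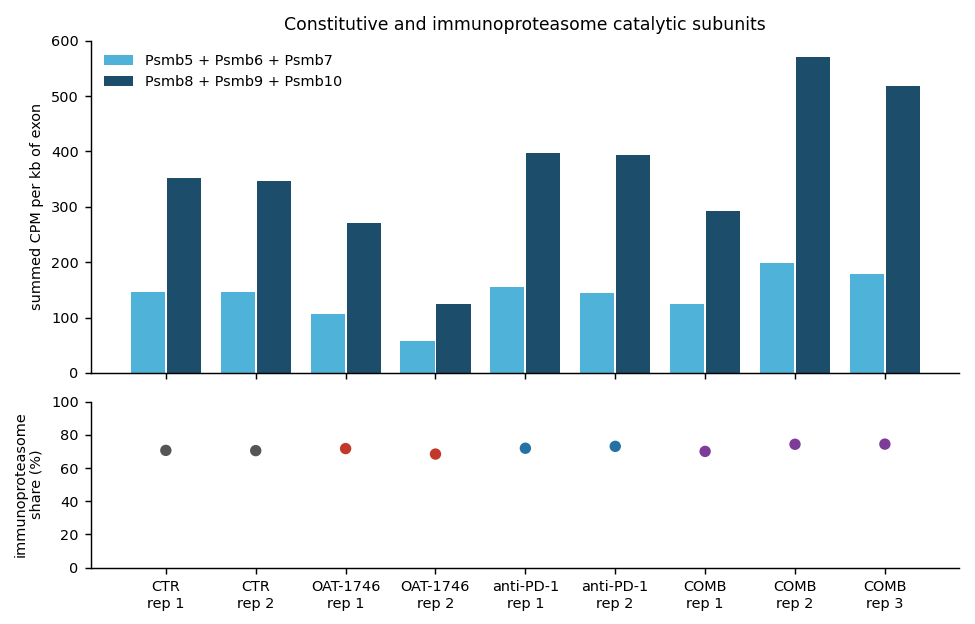
The upper panel plots summed CPM per kb of exon for the constitutive (light bars) and inducible (dark bars) catalytic subunits in each of the 9 libraries, and the lower panel the inducible share in percent. The sums were lowest in OAT-1746 replicate 2, and the share lay between 68.4% and 74.4% in every library.

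Other genes of the pathway were counted by lists. The 11 tested proteasome genes without a Psm symbol had a median log2 fold change of −0.45 for OAT-1746, 0.07 for anti-PD-1 and 0.07 for COMB, and of 0.51 for the interaction. In OAT-1746, 5 of them were lower at an unadjusted p under 0.05, the deubiquitinases Uchl5 (−0.94) and Usp14 (−0.58), the lid subunit Sem1 (−0.98), the ubiquitin receptor Adrm1 (−0.45) and Txnl1 (−0.45), and 2 were higher, Zfand5 and Akirin2. Pomp, which matures the core, was at −0.51. Ubiquitin receptors, shuttles and cofactors of the segregase VCP (13 genes) had medians of −0.28 for OAT-1746, −0.08 for anti-PD-1 and −0.12 for COMB, and of 0.24 for the interaction, with 4 lower at an unadjusted p under 0.05 in OAT-1746. Ubiquitin genes and E1 enzymes (6 genes) had medians of −0.31 for OAT-1746, 0.09 for anti-PD-1 and 0.06 for COMB, and of 0.29 for the interaction, with 1 lower. Of all tested genes, 16.2% were lower and 16.1% higher in OAT-1746 at an unadjusted p under 0.05. The last of these lists was close to that share. Without OAT-1746 replicate 2 the medians were −0.14 in OAT-1746 and 0.27 in the interaction for the first list, −0.13 in OAT-1746 and 0.23 in the interaction for the second, and −0.09 in OAT-1746 and 0.09 in the interaction for the third. The genes lower at an unadjusted p under 0.05 in OAT-1746 then numbered 2 (Uchl5 at −0.65 and Usp14 at −0.55), 1 and 1.

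Zfand5, an activator of the 26S proteasome, ran opposite to the subunits, with 70.3 and 69.1 CPM in CTR, 138 and 238 in OAT-1746, 103 and 137 in anti-PD-1, and 75.7, 74.5 and 73.9 in COMB. OAT-1746 replicate 2 was highest, anti-PD-1 and OAT-1746 replicate 1 came next, and COMB was near CTR. The log2 fold change in OAT-1746 was 1.43 (edgeR adjusted p = 0.0610), and 1.0 without replicate 2 (edgeR adjusted p = 0.208). In contrast to the members, its interaction passed the test (log2 difference −2.12, SE 0.33, edgeR adjusted p = 0.0406, DESeq2 adjusted p = 4.67e-06), with adjusted p from 0.00152 to 0.326 across edgeR settings. The call was lost without CTR replicate 1 (0.210), CTR replicate 2 (0.164), anti-PD-1 replicate 1 (0.0653), anti-PD-1 replicate 2 (0.207), COMB replicate 2 (0.146) or COMB replicate 3 (0.156), and with library size alone in place of TMM (0.0501), all as edgeR adjusted p.

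Nfe2l1 (NRF1) drives subunit transcription when the proteasome is inhibited. The list of its axis held the factors Nfe2l1, Nfe2l2 (NRF2) and Nfe2l3, their small Maf partners, Bach1, which competes with NRF2 for DNA, Keap1, which restrains NRF2, and Ddi2 and Ngly1, which process NRF1. Its 9 tested genes had medians of 0.09 for OAT-1746, 0.07 for anti-PD-1 and −0.13 for COMB, and of −0.34 for the interaction. In OAT-1746, 2 were higher at an unadjusted p under 0.05 and 0 were lower, against 16.1% and 16.2% of all tested genes. Without replicate 2 the medians were 0.10 in OAT-1746 and −0.31 in the interaction. Nfe2l1 itself had 133 and 107 CPM in CTR, 126 and 128 in OAT-1746, 103 and 147 in anti-PD-1, and 117, 92.8 and 106 in COMB, with overlap between OAT-1746 and CTR (log2 fold change 0.09, SE 0.21, edgeR adjusted p = 0.783, DESeq2 adjusted p = 0.819). Mafk, a small Maf partner of NRF1 and NRF2, had 35.1 and 32 CPM in CTR, 61.1 and 72.8 in OAT-1746, 39.7 and 61.8 in anti-PD-1, and 27.2, 26.9 and 30.8 in COMB, with OAT-1746 above CTR and COMB below it. Its interaction passed the test (log2 difference −1.84, SE 0.29, edgeR adjusted p = 0.0420, DESeq2 adjusted p = 1.76e-05). The edgeR call was lost without CTR replicate 1 (adjusted p = 0.210), CTR replicate 2 (0.164), OAT-1746 replicate 2 (0.0874), anti-PD-1 replicate 2 (0.167), COMB replicate 2 (0.146) or COMB replicate 3 (0.156), and with a correction for length and GC content (0.0609). The 10 NRF2 targets had medians of −0.81 for OAT-1746, 0.02 for anti-PD-1 and 0.17 for COMB, and of 0.86 for the interaction, with 6 lower and 1 higher at an unadjusted p under 0.05 in OAT-1746. Without replicate 2 these were −0.37 in OAT-1746 and 0.54 in the interaction, with 2 lower and 0 higher.

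Protein complexes outside the proteasome were read as a scale for these medians. Of all tested genes, 16.2% were lower in OAT-1746 at an unadjusted p under 0.05. The 7 tested genes of the CCT chaperonin, which folds cytoskeletal proteins, had medians of −0.68 for OAT-1746, −0.05 for anti-PD-1 and −0.00 for COMB, and of 0.78 for the interaction, with 7 lower at an unadjusted p under 0.05 in OAT-1746. The 14 genes of the translation factor eIF3 had medians of −0.67 for OAT-1746, −0.17 for anti-PD-1 and −0.10 for COMB, and of 0.75 for the interaction, with 12 lower. The 9 genes of the COP9 signalosome, which resembles the 19S lid, had medians of −0.14 for OAT-1746, −0.02 for anti-PD-1 and 0.08 for COMB, and of 0.25 for the interaction, with 3 lower. The medians of CCT and eIF3 in OAT-1746 were thus close to that of the members, and that of COP9 was nearer to 0. The 16 genes of the interferon-gamma response had medians of −0.48 for OAT-1746, 0.27 for anti-PD-1 and 0.15 for COMB, and of 0.39 for the interaction, with 1 lower in OAT-1746. With replicate 2 of OAT-1746 left out, the medians were −0.43 in OAT-1746 and 0.56 in the interaction for CCT (1 lower at an unadjusted p under 0.05 in OAT-1746), −0.42 in OAT-1746 and 0.49 in the interaction for eIF3 (6 lower), −0.11 in OAT-1746 and 0.23 in the interaction for COP9 (1 lower), and −0.11 in OAT-1746 and −0.00 in the interaction for the interferon-gamma response (0 lower).

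**Figure D4:**
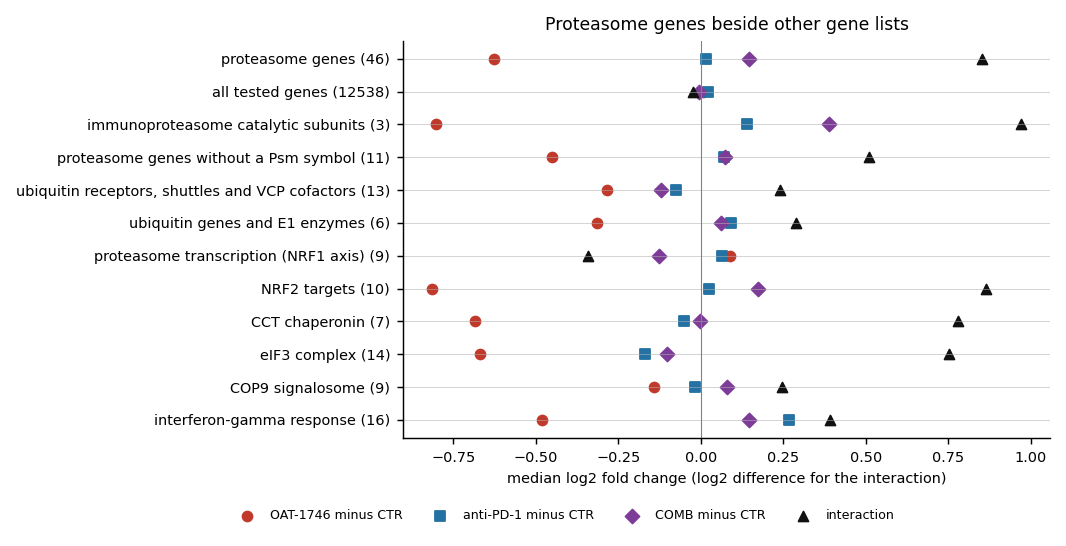
Each symbol is the median log2 fold change of a list in 1 contrast (log2 difference for the interaction), with the number of genes in brackets. The proteasome genes lie at −0.63 in OAT-1746 and 0.85 in the interaction, with CCT at −0.68 and 0.78 and eIF3 at −0.67 and 0.75.

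Markers of the sorted cells were read in the same libraries. The 6 markers of the myeloid sort (Itgam, which encodes CD11b, and 5 others) were present in every library, and Csf1r had the highest mean CPM. Their summed level was 9566 and 11233 CPM in CTR, 12847 and 13598 in OAT-1746, 10269 and 10416 in anti-PD-1, and 11551, 10350.1 and 10717 in COMB. Csf1r carried this sum, with 6299 and 7839 CPM in CTR, 9939 and 11551 in OAT-1746, 7283 and 7199.8 in anti-PD-1, and 8849, 6926 and 7446 in COMB. Beside Csf1r and Itgam, which were higher in OAT-1746 at an unadjusted p under 0.05, the other 4 were lower (Ptprc, Tyrobp, Fcer1g and Aif1), 2 of them at an unadjusted p under 0.05. Of all tested genes, 16.1% were higher and 16.2% lower at that p. The list's median log2 fold change was −0.55, or −0.24 without replicate 2. Without that library Csf1r was at 0.51, Itgam at 0.42 and the other 4 at −0.37 to −0.18. T cell markers summed to only 11.4 to 29.2 CPM over 9 genes, with Cd4 highest in mean CPM. No marker of either list was at 0 in all libraries. Of the 10 NK cell markers none was at 0, and Klrk1 led in mean CPM, though per kb of exon Gzma was higher in every library. The markers summed to 77.5 and 83.9 CPM in CTR, 111 and 24.7 in OAT-1746, 329 and 199 in anti-PD-1, and 85.5, 171 and 183 in COMB. They were lowest in OAT-1746 replicate 2, as the proteasome genes were, and highest in anti-PD-1, where the proteasome genes were near CTR, and within COMB they were higher in replicates 2 and 3 than in replicate 1. Their median log2 fold change was −0.01 in OAT-1746 (0.60 without replicate 2), 2.20 in anti-PD-1 and 1.35 in COMB. Higher at an unadjusted p under 0.05 were 8 of 10 in anti-PD-1 (3.18% of all tested genes) and 4 in COMB (3.21%). The 11 neutrophil markers were led by Csf3r in mean CPM, not scaled to exon length. They summed to 321 and 492 CPM in CTR, 530.4 and 709 in OAT-1746, 381 and 375 in anti-PD-1, and 448, 453 and 447 in COMB. In OAT-1746 their median was 0.76, or 0.34 without replicate 2. Of 9 tested, 4 were higher in OAT-1746 at an unadjusted p under 0.05, against 16.1% of all tested genes. The 6 astrocyte markers had a median log2 fold change of 0.91 in COMB, with 6 higher, 5 at an unadjusted p under 0.05 (3.21% of all tested genes). The 6 endothelial markers had a median of 0.61 in COMB, with 5 higher and 1 lower, 3 of the 5 at an unadjusted p under 0.05. The part of these cells in the proteasome values was not tested.

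Markers of microglia, the resident cells, were higher in OAT-1746, where the proteasome genes were lower. None of the 9 genes reported was at 0, and Cx3cr1 had the highest mean CPM, not scaled to exon length. The 9 genes summed to 9790.0 and 15799 CPM in CTR, 21837 and 27578 in OAT-1746, 14841 and 12589 in anti-PD-1, and 18250.2, 13053 and 12467 in COMB. OAT-1746 was highest, and 9 of 9 were higher than in CTR at an unadjusted p under 0.05 (median 0.96), against 16.1% of all tested genes. Without replicate 2 the median was 0.78, with 5 at an unadjusted p under 0.05. In COMB the median was 0.25, with 7 of 9 higher, and by library, against the CTR mean, the median marker was at 0.56, 0.03 and 0.07, beside −0.18, 0.33 and 0.25 for the median proteasome gene. COMB replicate 1 was thus the highest of the 3 for the markers and the lowest for the proteasome genes. The interaction of the microglia markers was opposite in sign to that of the members, with a median of −0.92. Of the 9 markers, 9 were negative, 4 at an unadjusted p under 0.05 (14.4% of all tested genes). Without OAT-1746 replicate 2 that median was −0.67. Of the 12 markers of monocytes and macrophages none was at 0. Tgfbi led in mean CPM, though per kb of exon Lyz2 was higher in every library. The 12 markers summed to 13354 and 12574 CPM in CTR, 9629 and 1864 in OAT-1746, 12686 and 14984 in anti-PD-1, and 10030.4, 12315 and 12762 in COMB. OAT-1746 replicate 2 was far below all others. In 5 of the 12 both OAT-1746 libraries were below both CTR libraries, against 32.1% of all tested genes. In OAT-1746, 12 of 12 were lower (median −0.88), 4 at an unadjusted p under 0.05, against 16.2% of all tested genes. That median rested on replicate 2: against the CTR mean, the median marker was at −0.04 in replicate 1 and −2.67 in replicate 2. With replicate 1 alone the median log2 fold change was −0.04, with 7 of 12 lower. The part of cell composition in the proteasome values was not tested.

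Cycling markers moved with the proteasome genes in OAT-1746. The 12 genes, led by Pcna and with none at 0, summed to 359 and 367 CPM in CTR, 217 and 121 in OAT-1746, 247 and 298 in anti-PD-1, and 266, 317 and 295 in COMB. Both OAT-1746 libraries were lowest and CTR was highest. In OAT-1746, 11 of 12 were lower at an unadjusted p under 0.05 (16.2% of all tested genes), with a median of −1.67. Without replicate 2 the median was −1.0, with 9 lower at an unadjusted p under 0.05. The order of COMB and CTR was thus the reverse of that for COMB replicates 2 and 3 in the proteasome sum. The interaction of the cycling markers had the sign of the members', with 12 of 12 positive. Of these, 9 had an unadjusted p under 0.05 (11.8% of all tested genes) and 8 passed DESeq2's adjusted p (3.61%). The median interaction was 1.67, beside 0.85 for the members. Without OAT-1746 replicate 2 it was 1.25, with 9 at an unadjusted p under 0.05. The 10 immediate early genes, led by Junb and with none at 0, which respond to cell stress and handling among other signals, summed to 11574 and 10911 CPM in CTR, 16214 and 23145 in OAT-1746, 10519.5 and 13494 in anti-PD-1, and 5848, 6565 and 6739 in COMB. OAT-1746 was highest and COMB lowest without overlap with the other groups. The interaction of the immediate early genes was opposite in sign to that of the members, with a median of −2.05, or −1.70 without OAT-1746 replicate 2. At an unadjusted p under 0.05, 9 of 10 were negative, against 14.4% of all tested genes. Nuclear and mitochondrial RNAs, 11 genes led by mt-Co1, summed to 12726 and 10169 CPM in CTR, 22850.4 and 19980.5 in OAT-1746, 6156 and 13706 in anti-PD-1, and 13628, 7434 and 8354 in COMB, with OAT-1746 highest. Of these genes, mt-Co2, mt-Co3 and mt-Atp6 were listed at 0 in every library. The 6 tested had a median interaction of −0.98, opposite in sign to that of the members. All 6 were negative, with 0 at an unadjusted p under 0.05. Without OAT-1746 replicate 2 that median was −1.06. The part of cycling, of immediate early genes and of RNA quality in the proteasome values was not tested.

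**Figure D5:**
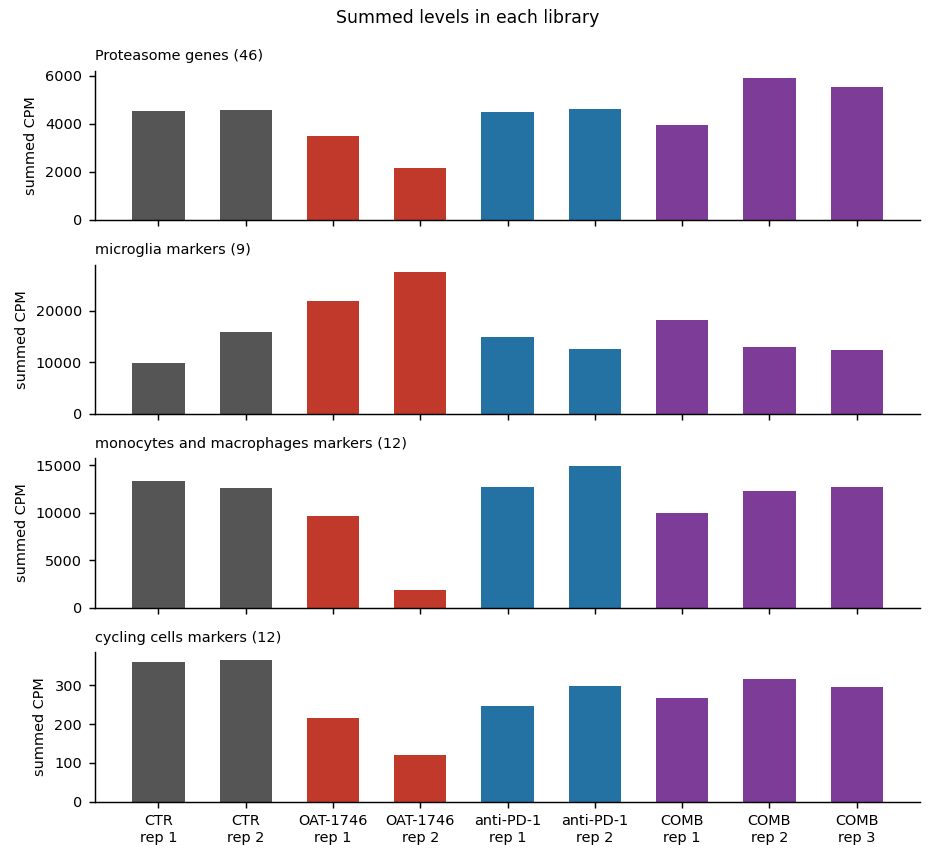
Bars give summed CPM in each of the 9 libraries for the 46 proteasome genes and for the markers of microglia, of monocytes and macrophages, and of cycling cells, each on its own axis from 0. OAT-1746 replicate 2 has the lowest proteasome sum (2168 CPM), the highest microglia sum (27578 CPM) and the lowest sums of the other 2 lists.

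What else the members shared was looked for in their promoters. RefSeq gave a promoter for 38 of the 46 members, and those of Psma8, Psmb1, Psmb2, Psmb7, Psmc3, Psmd3, Psmd7 and Psmg2 were not analysed here. A search on both strands covered 12 motifs, chosen, like the promoters shown, after the values had been seen. Beside those given above, the GC box GGGCGG was in 22 member promoters (57.9%) and 38.2% of all promoters, the CCAAT box in 13 (34.2%) and 41.1%, and TGANNNNGC in 21 (55.3%) and 45.0%. AAGATGGC, the core of YY1, was in 3 (7.89%) and 3.19%, the E box CACGTG in 3 (7.89%) and 8.09%, and TTCNNNGAA, the STAT palindrome, in 2 (5.26%) and 9.55%. TGACGTCA, the cAMP response element, and TTTGGCGC, an E2F core, were in 0 member promoters and in 2.03% and 0.585% of all promoters. Overlapping matches in members were those of TGANNNNGC with GGGCGG in 4 promoters and with TTCNNNGAA in 1, and of TGACNNNGC with GGGCGG in 1. Of the 12 motifs, the ETS core stood furthest, in percentage points, from its share of all promoters. Members with it had a median log2 fold change in OAT-1746 of −0.58 and those without it −0.70, and for TGACNNNGC the medians were −0.58 with and −0.64 without. With replicate 2 of OAT-1746 left out, these medians were −0.31 and −0.37 for the ETS core, and −0.40 and −0.35 for TGACNNNGC. Shares of motifs among the tested genes alone were not computed. A match is a run of letters and was not read as a bound site.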

How the data were processed

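The authors deposited raw counts, read pairs assigned to each gene by HTSeq 0.11.1 (reverse stranded, mapping quality of 10 or more) after Trimmomatic 0.36, STAR 2.6.1b on mm10 and duplicate flagging in Picard 2.17.1. In R 4.3.3, edgeR 4.0.16 (filterByExpr with minimum count 10, TMM, quasi-likelihood, 1 mean per group) tested 12538 of 21890 protein-coding genes (GENCODE M21), adjusting p over all of them by Benjamini-Hochberg with a threshold of 0.05. The common biological coefficient of variation was 0.214, with 5 residual and 4.15 prior degrees of freedom, so the spread was shared between groups and genes. DESeq2 1.42.0 was the alternative test. CPM per kb used the union of GENCODE exons. The fit was tested on simulated data, and the outcome is not reported here.

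Named were Psmb5, Psmb6, Psmb7, Psme1, Psme2 and, per contrast, up to 5 members each way with the largest fold change at an unadjusted p under 0.05 without overlap of groups (for the interaction, by p alone). Others were named for their role or after their values were seen. The members and lists were chosen with earlier results of these data known. A further marker of the microglia list is not reported here.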

Additional observations from a re-analysis of the deposited data

Results flagged for a closer look

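The interaction test, which asks whether OAT-1746 acted differently with the antibody than without it, passed edgeR's adjusted p under 0.05 for 45 of all tested genes, of which 44 were negative, and for 6 genes of the lists. Of the pathway lists, the log2 difference was −2.12 (edgeR adjusted p = 0.0406) for Zfand5 and −1.84 (edgeR adjusted p = 0.0420) for Mafk. Of the 10 immediate early genes it was −3.87 (edgeR adjusted p = 0.0285) for Egr1, −2.80 (edgeR adjusted p = 0.0289) for Jun, −1.73 (edgeR adjusted p = 0.0304) for Ier2 and −2.89 (edgeR adjusted p = 0.0499) for Atf3. All 6 had higher levels in OAT-1746 than in CTR, and in COMB the immediate early genes and Mafk lay below CTR and Zfand5 near it. The part of cell stress and handling in these values was not tested. Across the settings tried, the edgeR or DESeq2 adjusted p reached 0.326 for Zfand5, 0.347 for Mafk, 0.210 for Egr1, 0.298 for Jun, 0.301 for Ier2 and 0.394 for Atf3, and was as low as 2.93e-20 for Egr1 and 1.76e-05 for Mafk. All 6 edgeR calls were lost without CTR replicate 1, CTR replicate 2, anti-PD-1 replicate 2, COMB replicate 2 or COMB replicate 3, and with the replicate number as a block.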

How the results depend on the processing

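The medians of the members in OAT-1746, COMB and the interaction kept their sign under every alternative, and that of anti-PD-1, 0.02, did not: it was −0.03 with the correction for length and GC content. When each library was left out in turn, the medians lay between −1.0 and −0.35 in OAT-1746, −0.01 and 0.02 in anti-PD-1, 0.03 and 0.27 in COMB, and 0.56 and 1.24 in the interaction. A group left with 1 library is assumed to vary like the other groups. Of members at an unadjusted p under 0.05, the same fits gave 3 to 39 in OAT-1746, 1 to 4 in anti-PD-1, 0 to 5 in COMB and 8 to 39 in the interaction, and past edgeR's adjusted p 0 to 35 in OAT-1746 and 0 to 33 in the interaction. DESeq2 called 11 members in OAT-1746 and 6 in the interaction where edgeR called 0, and put 2 of COMB at an unadjusted p under 0.05, both higher (3.73% of all tested genes), against 1 in edgeR. That count in COMB was 4 with library size alone (3.64%) and 3 with no filter on low counts (3.32%), all higher. Without the symbol-only matches, anti-PD-1 had 1 in place of 2.

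Over 12 pairs of libraries with the same replicate number, deviations from the group means correlated at −0.349 to 0.1, none above 0.1. In the groups other than COMB the deviations of the libraries mirror each other, so pairs between those groups repeat the same value. These correlations gave no sign of pairing by number and cannot exclude it. With the replicate number as a block, members at an unadjusted p under 0.05 numbered 16 in OAT-1746, all lower (10% of all tested genes), 0 in anti-PD-1, 0 in COMB and 4 in the interaction, all positive (4.59%), and the interaction of Zfand5 and Mafk had an edgeR adjusted p of 0.326 and 0.347.

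Over all genes, adjusted p under 0.05 was reached in OAT-1746 by 0 genes in edgeR, 1972 in DESeq2, 587 with no filter and 3647 without OAT-1746 replicate 1. For anti-PD-1 the counts were 0 and, in DESeq2, 14, and for COMB 0, 35 in DESeq2 and 2 with no filter. The interaction had 45 in edgeR, 1053 in DESeq2, 146 with no filter, 24 with library size alone, 0 with the block, 2756 without OAT-1746 replicate 1 and 0 to 419 with another library left out. With library size alone the median of all genes was 0.10 in OAT-1746 and −0.11 in the interaction, against 0.01 and −0.02 with TMM, and relative to it the members were at −0.65 and 0.88. A correction for length and GC content gave −0.50 and 0.61. The sign of the fold change was the same in every setting for 42 members in OAT-1746, 32 in anti-PD-1, 28 in COMB and 43 in the interaction. The causes of these differences were not tested. Low counts limit Psma8, Psmc3ip and Psmg3.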
